A study of Mus musculus with 39 samples.

Results

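*Slc1a2*, *Adra1d*, *Doc2b* and *Map7d2* are 4 of the 55573 genes counted by bulk RNA sequencing of mouse sciatic nerve endoneurium, the tissue inside the perineurium. All 4 passed the expression filter, which kept 18442 genes. They were selected on their difference between genotypes in injured nerves at 4 weeks post-crush (wpc), so that difference is described below and not tested, and the tests are on their injury response and time course. Animals of the control genotype (*Lepr*-ctrl) were Lepr fl/fl, with both copies of *Lepr* floxed, and had no recombinase. *Lepr*-cKO mice carried Lepr fl/fl together with Dhh-Cre, which is driven in Schwann cells by regulatory sequences of *Dhh*. Both genotypes therefore share the floxed allele, and mice with Dhh-Cre alone are not among the groups. The mice were adults of both sexes, 2 to 4 months old, on a C57BL/6 background. The sciatic nerve of 1 side was crushed (injured), and the contralateral nerve (healthy) came from the same operated mouse. Nerves were taken at 2 or at 4 wpc from different mice, so that time and cohort cannot be told apart. At 2 wpc the groups held 5 healthy and 5 injured *Lepr*-ctrl nerves and 6 healthy and 5 injured *Lepr*-cKO nerves. At 4 wpc they held 5 healthy and 4 injured nerves of each genotype, for 39 libraries in all.

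The 4 genes belong to different machineries. *Slc1a2* encodes a sodium-driven glutamate transporter that astrocytes use to clear glutamate from synapses. *Adra1d* encodes the alpha-1D adrenoceptor, a receptor for noradrenaline that signals through Gq proteins and phospholipase C and is known for the contraction of arterial smooth muscle. *Doc2b* encodes a calcium sensor that promotes the fusion of secretory vesicles with the plasma membrane in neurons and endocrine cells. *Map7d2* encodes a microtubule-binding protein of the MAP7 family, whose members recruit and activate the motor kinesin-1. After a crush, the distal axons degenerate, Schwann cells shed their myelin and turn into repair cells, and axons then regrow and are remyelinated.

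Library totals ranged from 10905806 to 45016322 counts (median 27752451) and were lowest in the injured nerves at 4 wpc, where weakly expressed genes are measured least precisely. There they were 10905806 to 17640587 in *Lepr*-ctrl and 15071347 to 25923752 in *Lepr*-cKO mice. All 10 myelinating Schwann cell markers and all 11 repair Schwann cell markers examined reached a group mean of at least 1 CPM (read counts relative to the library total, scaled by TMM factors, as given by edgeR), while *Syt1*, *Rbfox3*, *Elavl4* and *Ina* of 12 neuronal markers were below 1 CPM in every group. The floxed *Lepr* exon is exon 1 and counts cover the whole gene, so the *Lepr* level does not check the genotype labels. It was 5.46 to 109 CPM, without TMM factors, over all libraries. The libraries of 3 injured nerves stood apart in composition. That of *Lepr*-cKO animal KO-126 at 2 wpc had a summed level of 15 skeletal muscle markers of 53100 CPM. That of *Lepr*-ctrl animal WT-144 at 2 wpc had 33.0% of its counts in mitochondrially encoded genes. That of *Lepr*-cKO animal KO-169 at 4 wpc had 2.95%, against 9.84% to 20.2% in the other injured *Lepr*-cKO nerves at 4 wpc. In the injured *Lepr*-ctrl nerves at 4 wpc this share was 17.2% to 21.6%. The part of these differences between genotypes in the values of the 4 genes was not tested. The injured *Lepr*-cKO nerve of KO-135 at 2 wpc came near WT-144, with 29.7%, but was not counted among the 3. In this bulk tissue, fewer cells of a type and less RNA per cell cannot be told apart.

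In GRCm38 with the GENCODE annotation, *Slc1a2* (ENSMUSG00000005089) spans bases 102658659 to 102790784 of chromosome 2 (plus strand) and *Adra1d* (ENSMUSG00000027335) bases 131545850 to 131562283 of the same chromosome (minus strand). *Doc2b* (ENSMUSG00000020848) spans bases 75768966 to 75796049 of chromosome 11 (minus strand), and *Map7d2* (ENSMUSG00000041020) bases 159414572 to 159498757 of chromosome X (plus strand). All are protein-coding, and counts were summed over their exons. These exons merge into 20 blocks of 13133 bases for *Slc1a2*, 2 blocks of 1899 bases for *Adra1d*, 9 blocks of 4361 bases for *Doc2b* and 18 blocks of 4121 bases for *Map7d2*. Each of *Slc1a2*, *Adra1d* and *Doc2b* shares exonic bases with a gene on the opposite strand. Over all libraries, the partner's counts were 0.0166% of the counts of *Slc1a2* (*Gm13872*), 1.3% of those of *Adra1d* (*Gm14285*) and 3.30% of those of *Doc2b* (*Gm12339*).

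Annotated transcripts of *Slc1a2* (12) and *Map7d2* (5) start at more than 1 place, and the counts do not separate these starts. RefSeq promoter windows of GRCm38.p6, 250 bases before to 50 bases after a start, were at hand for these 2 of the 4 genes. They are shown because their base composition differs widely, with CG pairs in capitals. The *Slc1a2* window is chr2:102706188-102706487 on the plus strand, inside the annotated gene. The *Map7d2* windows, both on the plus strand, are chrX:159414322-159414621 at the first annotated base of the gene and chrX:159458875-159459174 inside it.
Slc1a2: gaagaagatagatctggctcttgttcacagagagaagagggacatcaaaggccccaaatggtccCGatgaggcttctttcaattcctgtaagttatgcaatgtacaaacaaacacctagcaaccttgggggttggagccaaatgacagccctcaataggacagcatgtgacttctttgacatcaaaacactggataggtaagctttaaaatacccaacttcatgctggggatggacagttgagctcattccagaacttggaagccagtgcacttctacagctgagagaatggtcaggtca
Map7d2, first window: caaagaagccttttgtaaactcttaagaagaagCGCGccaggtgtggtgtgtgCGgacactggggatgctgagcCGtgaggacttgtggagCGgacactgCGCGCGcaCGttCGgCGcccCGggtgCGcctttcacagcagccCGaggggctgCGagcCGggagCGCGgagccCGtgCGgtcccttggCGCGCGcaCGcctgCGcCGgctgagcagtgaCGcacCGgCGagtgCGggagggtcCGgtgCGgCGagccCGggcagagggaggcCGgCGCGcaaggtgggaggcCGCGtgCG
Map7d2, second window: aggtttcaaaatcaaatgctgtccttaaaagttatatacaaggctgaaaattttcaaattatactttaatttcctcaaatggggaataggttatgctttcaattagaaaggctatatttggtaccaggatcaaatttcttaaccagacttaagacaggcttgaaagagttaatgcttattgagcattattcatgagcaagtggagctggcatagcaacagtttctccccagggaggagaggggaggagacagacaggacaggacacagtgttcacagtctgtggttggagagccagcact
The first *Map7d2* window held 40 CG pairs at 71.3% G and C, a number that 3.91% of the 32851 mouse windows reach. The *Slc1a2* window held 1 CG pair at 45.7% G and C, and the second *Map7d2* window held 0 at 40.0%. Neither the STAT motif TTCNNNGAA nor the AP-1 motif TGANTCA, searched on both strands, occurred in these 3 windows. Over all windows, 8.30% hold the former and 7.81% the latter.

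Of the 4 genes, the glutamate transporter *Slc1a2* had the largest fall after crush. In healthy nerves at 2 wpc, it was at 6.52, 4.00, 8.50, 8.94 and 6.54 CPM in *Lepr*-ctrl mice and between 4.91 and 10.8 CPM (median 8.01, n = 6) in *Lepr*-cKO mice. After injury, the values at 2 wpc were 0.762, 1.13, 0.751, 0.522 and 0.806 CPM in *Lepr*-ctrl and 1.32, 0.904, 0.918, 0.917 and 0.225 CPM in *Lepr*-cKO mice. Every injured nerve was thus below every healthy nerve of its genotype, at a mean of 11.5% of the healthy level in controls and 10.7% in the knockout. The log2 fold change was -3.10 (SE 0.37, edgeR adjusted p = 5.21e-09) in *Lepr*-ctrl and -3.21 (SE 0.36, edgeR adjusted p = 1.44e-09) in the knockout.

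At 4 wpc, *Slc1a2* in healthy nerves was at 8.56, 9.74, 12.9, 6.74 and 9.44 CPM in *Lepr*-ctrl and at 9.01, 8.24, 12.7, 12.7 and 10.1 CPM in *Lepr*-cKO mice. In injured *Lepr*-ctrl nerves it was close to the limit of detection, with 0.174, 0.191, 0.167 and 0.0938 CPM, which are only 2, 3, 3 and 1 reads. In injured *Lepr*-cKO nerves, it was at 2.24, 0.273, 1.12 and 0.326 CPM (61, 5, 22 and 5 reads). All 8 injured nerves lay below all healthy ones, and the 4 *Lepr*-cKO nerves above the 4 *Lepr*-ctrl nerves, which is the difference that the gene was selected on. With the reads of a group pooled, healthy nerves had 56.4 times the level of injured nerves in *Lepr*-ctrl mice (95% interval 29.6 to 124) and 9.05 times in *Lepr*-cKO mice (7.34 to 11.3), where the intervals cover counting error only. Averaged over both genotypes, the fitted log2 fold change was -4.59 (SE 0.33, edgeR adjusted p = 2.89e-14), a value that rests in part on the few reads of the *Lepr*-ctrl nerves. This average includes the injured nerves that the gene was selected on.

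The *Lepr*-cKO nerves with the most *Slc1a2* at 4 wpc, those of KO-169 and KO-176, also had the highest summed levels of the 10 myelin markers, 81000 and 69300 CPM, against 55600 and 32300 CPM in KO-175 and KO-177. In injured *Lepr*-ctrl nerves this sum was 26400 to 36100 CPM. The 7 astrocyte and satellite glia markers, of which 6 reached a group mean of 1 CPM and *Gjb6* did not, summed to 29.6 to 39.7 CPM in *Lepr*-ctrl and 32.6 to 100 CPM in *Lepr*-cKO nerves, with *Aqp4* at 0 in both groups. The part of these differences in the *Slc1a2* values was not tested.

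The adrenoceptor gene *Adra1d* was also lower after crush, by less. At 2 wpc, healthy nerves had 2.27, 2.73, 2.73, 2.39 and 2.45 CPM in *Lepr*-ctrl and 1.80 to 2.81 CPM (median 2.26, n = 6) in *Lepr*-cKO mice. Injured nerves had 1.1, 1.19, 2.15, 0.379 and 0.732 CPM in *Lepr*-ctrl and 0.691, 2.60, 0.807, 1.39 and 0.834 CPM in *Lepr*-cKO mice. The injured *Lepr*-ctrl nerves were all below the healthy ones, and in *Lepr*-cKO mice 4 of 5 were, the exception being the muscle-rich library of KO-126 with 2.60 CPM. The log2 fold change was -1.16 (SE 0.36, edgeR adjusted p = 0.00543) in *Lepr*-ctrl mice. It was -0.85 (SE 0.34, edgeR adjusted p = 0.0294) in *Lepr*-cKO mice, under the threshold of a log2 fold change of 1. That threshold was passed in *Lepr*-cKO mice with the animal as a block (-1.06, edgeR adjusted p = 0.0112) or without KO-126 (-1.29, edgeR adjusted p = 0.0013), and was missed in *Lepr*-ctrl mice without WT-144 (-0.95, edgeR adjusted p = 0.0215).

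At 4 wpc, *Adra1d* was at 3.89, 2.75, 3.13, 5.22 and 2.75 CPM in healthy *Lepr*-ctrl and at 4.06, 4.03, 3.23, 3.67 and 3.47 CPM in healthy *Lepr*-cKO nerves. Injured nerves had 0.435, 0.255, 0.390 and 0.281 CPM (5, 4, 7 and 3 reads) in *Lepr*-ctrl and 2.75, 0.437, 1.07 and 0.782 CPM in *Lepr*-cKO mice. Injured and healthy nerves did not overlap in either genotype, and the genotypes were barely apart in injured nerves, with 0.435 CPM in the highest *Lepr*-ctrl and 0.437 CPM in the lowest *Lepr*-cKO library. The pooled level in healthy nerves was 10.9 times that in injured nerves in *Lepr*-ctrl (95% counting interval 6.94 to 18.3) and 2.55 times in *Lepr*-cKO mice (2.08 to 3.15). Averaged over genotypes, *Adra1d* fell by 2.44 on the log2 scale (SE 0.31, edgeR adjusted p = 1.23e-08). This average includes the injured nerves that the gene was selected on. The summed level of 11 smooth muscle and pericyte markers was 195 to 483 CPM in injured *Lepr*-ctrl and 204 to 308 CPM in injured *Lepr*-cKO nerves at 4 wpc, so the 2 ranges overlapped. KO-169, which had the highest *Adra1d* and *Slc1a2* levels of its group, also had the highest sums of repair Schwann cell (1500 CPM) and fibroblast markers (13200 CPM), and their part in these values was not tested.

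The calcium sensor *Doc2b* differed widely between mice of some groups. At 2 wpc it was at 1.58, 1.77, 1.61, 1.06 and 2.13 CPM in healthy *Lepr*-ctrl nerves and at 1.12 to 7.65 CPM (median 2.16, n = 6) in healthy *Lepr*-cKO nerves. Injured nerves had 0.914, 2.12, 1.96, 2.47 and 2.42 CPM in *Lepr*-ctrl and 0.921, 3.25, 7.67, 2.07 and 12.1 CPM in *Lepr*-cKO mice. The ranges of injured and healthy nerves overlapped in both genotypes, and the highest values of both *Lepr*-cKO groups came from 1 animal, KO-138. The log2 fold change was 0.28 (SE 0.63, edgeR adjusted p = 0.708) in *Lepr*-ctrl and 0.86 (SE 0.58, edgeR adjusted p = 0.190) in *Lepr*-cKO mice. Without the healthy nerve of KO-138 it was 1.45 in *Lepr*-cKO mice and passed both thresholds (edgeR adjusted p = 0.0301), and without its injured nerve it was 0.29.

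At 4 wpc, *Doc2b* was at 0.963, 7.25, 3.94, 0.963 and 3.20 CPM in healthy *Lepr*-ctrl and at 2.46, 1.87, 2.26, 0.734 and 1.49 CPM in healthy *Lepr*-cKO nerves. Injured *Lepr*-ctrl nerves had 39.6, 4.78, 3.40 and 18.4 CPM, and injured *Lepr*-cKO nerves had 1.51, 1.04, 2.79 and 3.0 CPM. The injured *Lepr*-ctrl nerves of WT-170 and WT-178 were above all other libraries of the series, whereas the injured *Lepr*-cKO values overlapped those of healthy nerves. Averaged over genotypes, *Doc2b* was higher after injury with a log2 fold change of 1.29 (SE 0.47, edgeR adjusted p = 0.0140). The injured nerves that the gene was selected on are part of this average, so its call is no independent support. It joins unequal fitted values, 2.34 (SE 0.65) for controls and 0.23 (SE 0.68) for the knockout. The call of the average was lost without the injured nerve of WT-170 (0.83, edgeR adjusted p = 0.102). With the animal as a block, the averaged value fell just short of the fold threshold (0.98, edgeR adjusted p = 0.0143).

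*Map7d2*, the gene of the microtubule-binding protein, was lower after crush at 2 wpc in both genotypes. In healthy nerves at 2 wpc it had 2.67, 3.07, 3.38, 3.01 and 2.53 CPM in *Lepr*-ctrl and 2.47 to 4.59 CPM (median 2.79, n = 6) in *Lepr*-cKO mice. Injured nerves at 2 wpc had 0.724, 0.386, 1.08, 1.57 and 1.28 CPM in *Lepr*-ctrl and 0.806, 0.988, 1.32, 0.717 and 2.31 CPM in *Lepr*-cKO mice. All injured nerves were below all healthy nerves of their genotype. The log2 fold change of *Map7d2* was -1.55 (SE 0.28, edgeR adjusted p = 1.32e-05) in controls and -1.31 (SE 0.27, edgeR adjusted p = 6.46e-05) in the knockout.

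At 4 wpc, healthy nerves had 3.22, 3.62, 3.0, 2.77 and 2.42 CPM of *Map7d2* in *Lepr*-ctrl and 2.85, 2.67, 3.19, 2.76 and 2.38 CPM in *Lepr*-cKO mice. In injured nerves it was at 5.57, 4.40, 2.62 and 3.0 CPM in *Lepr*-ctrl and at 1.03, 0.820, 0.964 and 1.37 CPM in *Lepr*-cKO mice. *Lepr*-ctrl nerves were thus back in or above the healthy range, and *Lepr*-cKO nerves were all below it, near their level at 2 wpc. The mean was 130% of the healthy level in controls and 37.7% in the knockout. The average over both genotypes joins these unequal values into a log2 fold change of -0.52 (SE 0.21, edgeR adjusted p = 0.0276), under the fold threshold. It includes the injured nerves that the gene was selected on.

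**Figure D1:**
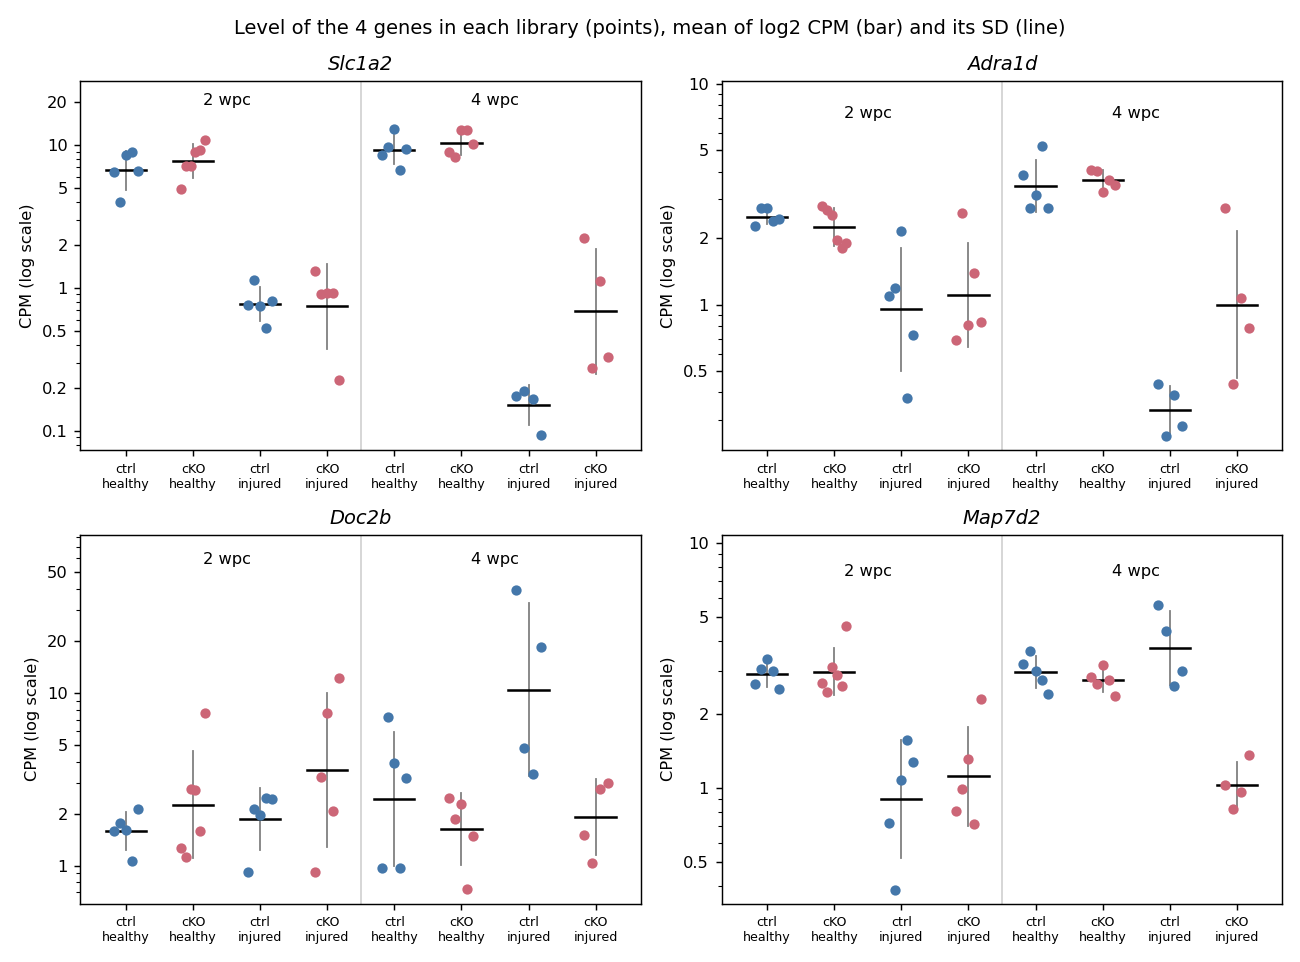
CPM of the 4 genes on a log scale for each of the 39 libraries (points), by genotype (*Lepr*-ctrl blue, *Lepr*-cKO red), nerve and time, with the mean of log2 CPM (bar) and its SD (line). *Slc1a2* in injured *Lepr*-ctrl nerves at 4 wpc sits between 0.0938 and 0.191 CPM, and *Doc2b* in the same nerves between 3.40 and 39.6 CPM.

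Genes were called at an adjusted p below 0.05 with an absolute log2 fold change above 1. By that rule, 3 of the 4 genes (*Slc1a2*, *Adra1d* and *Map7d2*, all lower) responded to injury at 2 wpc in *Lepr*-ctrl mice, where 34.1% of all tested genes were called. In *Lepr*-cKO mice, 2 of 4 were called (*Slc1a2* and *Map7d2*), with 34.3% of all genes. At 4 wpc, averaged over genotypes, 3 of 4 were called (*Slc1a2* and *Adra1d* lower, *Doc2b* higher), with 34.1% of all genes. The median log2 fold change of the 4 genes was -1.35, -1.08 and -1.48 in these comparisons, and that of all tested genes 0.08, 0.10 and 0.04. The calls of the 4 genes are to be read against these shares. Those at 4 wpc rest in part on the injured nerves that the genes were selected on and are no independent support for them. Without the 3 libraries of deviating composition, chosen after seeing the data, 2, 3 and 3 of the 4 genes were called.

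**Figure D2:**
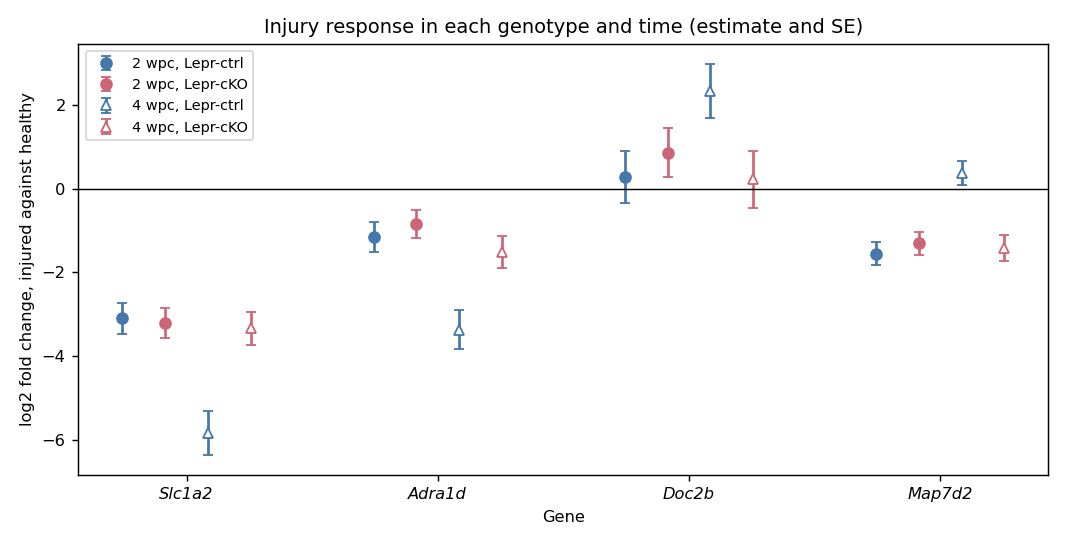
Log2 fold change of injured against healthy nerves with its SE for the 4 genes, in *Lepr*-ctrl (blue) and *Lepr*-cKO mice (red) at 2 wpc (circles) and 4 wpc (open triangles). The 2 genotypes lie close together at 2 wpc, and the separate 4 wpc values are a description, since they contain the libraries that the genes were selected on.

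Fitted for each genotype at 4 wpc, and given without a test, the log2 fold change on injury was -5.84 (SE 0.53) in controls and -3.34 (SE 0.40) in the knockout for *Slc1a2*. For *Adra1d* the values were -3.37 (SE 0.47) and -1.51 (SE 0.39), for *Doc2b* 2.34 (SE 0.65) and 0.23 (SE 0.68), and for *Map7d2* 0.37 (SE 0.29) and -1.41 (SE 0.31), respectively. The difference between genotypes that chose the genes was 2.66 (SE 0.58) for *Slc1a2*, 1.91 (SE 0.49) for *Adra1d*, -2.99 (SE 0.73) for *Doc2b* and -1.90 (SE 0.33) for *Map7d2*, as *Lepr*-cKO minus *Lepr*-ctrl. All 4 passed the call rule in it, as 0.45% of all genes did, and nothing is read from that. Without KO-169 the values of *Slc1a2* and *Adra1d* were 1.84 and 1.16, and without WT-170 that of *Doc2b* was -2.08. Among called genes with a mean above 1 on the log2 CPM scale and no overlap, *Slc1a2* was followed by *Gm49442* (2.34) and *B4galnt3* (1.83) on the higher side. On the lower side, *Doc2b* and *Map7d2* were followed by *Cdkn1c* (-1.21) and *S100a1* (-1.02). *Adra1d*, with a mean of 0.76 on that scale, lies outside this set.

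Outside the comparison that chose them, the 4 genes were not called between genotypes. In healthy nerves, 0 of 4 were called at 2 wpc and 0 of 4 at 4 wpc, where 0.00542% of all genes were called at each time. The log2 differences of *Lepr*-cKO minus *Lepr*-ctrl were 0.21 (SE 0.31) and 0.16 (SE 0.32) for *Slc1a2*, -0.14 (SE 0.33) and 0.05 (SE 0.34) for *Adra1d*, 0.82 (SE 0.60) and -0.88 (SE 0.63) for *Doc2b*, and 0.06 (SE 0.25) and -0.12 (SE 0.27) for *Map7d2*, all with an edgeR adjusted p of 1. In injured nerves at 2 wpc, 0 of 4 were called, with 0.569% of all genes. *Doc2b* had the largest value among the 4 there, 1.39 (SE 0.62), with an unadjusted p of 0.0315 and an edgeR adjusted p of 0.705, in the opposite direction to that at 4 wpc. It was 0.82 without the injured nerve of KO-138. *Slc1a2*, *Adra1d* and *Map7d2* were at 0.10 (SE 0.37), 0.17 (SE 0.36) and 0.30 (SE 0.29) in the same fit, with edgeR adjusted p of at least 0.977, and without KO-126 the value of *Adra1d* was -0.27. The difference between genotypes in the injury response at 2 wpc was -0.11 (SE 0.49) for *Slc1a2*, 0.31 (SE 0.49) for *Adra1d*, 0.58 (SE 0.85) for *Doc2b* and 0.24 (SE 0.38) for *Map7d2*. Again 0 of 4 were called, with 0% of all genes, and 796 of all genes had an unadjusted p below 0.05 in it. DESeq2 also called 0 of the 4 genes in each of these 4 comparisons, and among the 4 genes an unadjusted p was below 0.05 only for *Doc2b* in injured nerves at 2 wpc.

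The course from 2 to 4 wpc was compared over the mean of both genotypes, since the separate values contain the difference that chose the genes. In injured nerves, *Slc1a2* was lower at 4 than at 2 wpc (log2 difference -1.01, SE 0.35, edgeR adjusted p = 0.0284), while *Adra1d*, at -0.84 (SE 0.31, edgeR adjusted p = 0.0358), stayed under the fold threshold. *Map7d2*, at 0.86 (SE 0.21, edgeR adjusted p = 0.00241), also stayed under the fold threshold, and *Doc2b* was at 0.86 (SE 0.46, edgeR adjusted p = 0.158). By the call rule this is 1 of 4 genes, with 7.24% of all genes called. The *Slc1a2* value was close to the fold threshold, and the call was lost in 7 of 18 fits with 1 library left out, those without WT-130, WT-173, WT-178, KO-125, KO-135, KO-175 or KO-177. *Adra1d* passed both thresholds without KO-169 (-1.25, edgeR adjusted p = 0.0013), and *Map7d2* without KO-138 (1.01, edgeR adjusted p = 0.000239). These averages include the libraries that the genes were selected on. In *Lepr*-ctrl nerves alone, given without a test, the log2 differences were -2.29 (SE 0.57), -1.71 (SE 0.48), 3.06 (SE 0.67) and 1.96 (SE 0.30) for *Slc1a2*, *Adra1d*, *Doc2b* and *Map7d2*. In *Lepr*-cKO nerves the values were 0.27 (SE 0.39), 0.03 (SE 0.39), -1.33 (SE 0.68) and -0.24 (SE 0.31).

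In healthy nerves, 0 of 4 genes were called between the times, with 0.488% of all genes, and an unadjusted p was below 0.05 only for *Adra1d*. In each genotype, *Adra1d* in the healthy nerves at 4 wpc (10 in all) was above its whole 2 wpc range. The gap was very narrow in *Lepr*-ctrl mice, from 2.73 to 2.75 CPM, and ran from 2.81 to 3.23 CPM in *Lepr*-cKO mice. How many of all genes do so was not counted, and 4303 of the 18442 tested genes had an unadjusted p below 0.05 here. The log2 difference of *Adra1d* was 0.59 (SE 0.24, edgeR adjusted p = 0.114, DESeq2 adjusted p = 0.0649), under the fold threshold. Over the other settings the edgeR adjusted p for *Adra1d* ran from 0.000927 with only the groups compared, through 0.011 without the 3 libraries of deviating composition, to 0.231 with no expression filter, at a log2 difference of 0.58 to 0.60. With single libraries left out it ran from 0.105 to 0.236, at a log2 difference of 0.50 to 0.63. *Slc1a2* was at 0.43 (SE 0.22, edgeR adjusted p = 0.243), *Doc2b* at 0.15 (SE 0.43, edgeR adjusted p = 0.892) and *Map7d2* at -0.06 (SE 0.19, edgeR adjusted p = 0.904). The injury response itself differed between the times for 2 of the 4 genes, with 4.65% of all genes called. It was more negative at 4 wpc for *Slc1a2* (-1.44, SE 0.42, edgeR adjusted p = 0.0184) and *Adra1d* (-1.44, SE 0.39, edgeR adjusted p = 0.0114). These averages include the injured nerves at 4 wpc that the genes were selected on and are no independent support for them. For *Slc1a2*, the fitted response at 4 and 2 wpc was -5.84 and -3.10 in controls, where it rests on 1 to 3 reads per injured nerve at 4 wpc, and -3.34 and -3.21 in the knockout. For *Adra1d* it was -3.37 and -1.16 in controls, and -1.51 and -0.85 in the knockout. For *Map7d2* the averaged response was less negative at 4 wpc by 0.92 (SE 0.28, edgeR adjusted p = 0.0268), and by 1.09 with the animal as a block (edgeR adjusted p = 0.0133), which passes the fold threshold, as do the values without the injured nerve of WT-144 (1.02) or KO-138 (1.07). For *Doc2b* the difference was 0.72 (SE 0.63, edgeR adjusted p = 0.495).

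Both nerves were sequenced in 17 of the 22 mice. *Slc1a2* and *Adra1d* were lower in the injured than in the healthy nerve in 17 of 17 mice each. For *Slc1a2*, the injured nerve had 0.00994 to 0.0248 times the CPM of the healthy nerve in the 4 *Lepr*-ctrl mice at 4 wpc and 0.0256 to 0.249 times in the 4 *Lepr*-cKO mice. *Map7d2* was lower in the injured nerve in 14 of 17 mice, and the 3 others were *Lepr*-ctrl mice at 4 wpc, where the ratio ran from 0.945 to 1.54. *Doc2b* was higher in the injured nerve in 12 of 17 mice, including all 4 *Lepr*-ctrl mice at 4 wpc, where the ratio ran from 1.21 to 5.74. For *Doc2b*, the correlation between the healthy and the injured nerve of a mouse, after group means were removed, did not pass the threshold (Pearson r = 0.58, permutation p = 0.0644, adjusted over 4 genes 0.257; Spearman rho = 0.45, permutation p = 0.137, adjusted 0.547; n = 17 mice). Without WT-173 and KO-138, the 2 mice farthest from the median, r was 0.37.

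**Figure D3:**
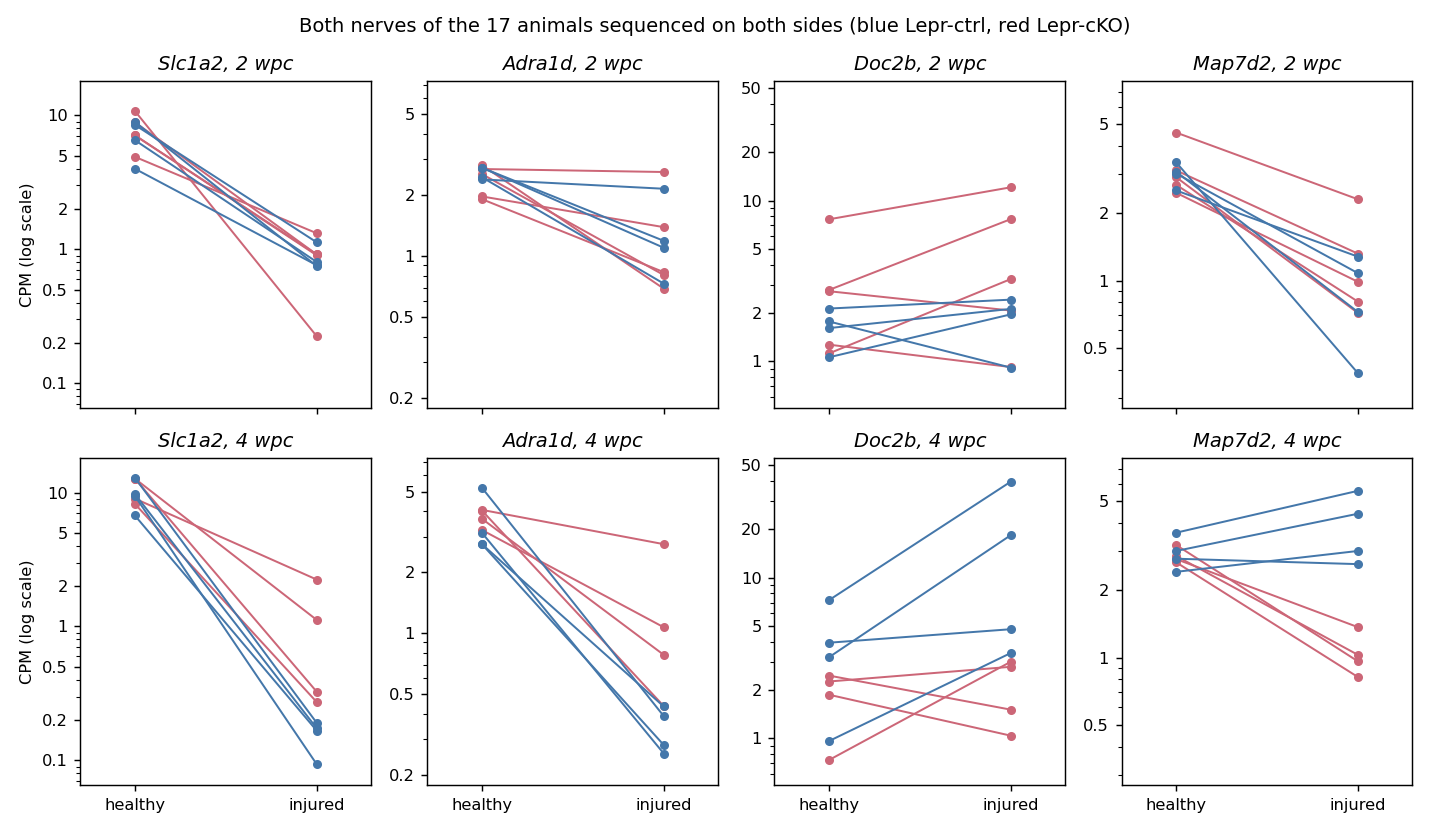
CPM (log scale) of the healthy and the injured nerve of the same animal, joined by a line, for the 4 genes (columns) at 2 wpc (upper row) and 4 wpc (lower row), in *Lepr*-ctrl (blue) and *Lepr*-cKO mice (red). Lines of *Slc1a2* and *Adra1d* fall in all 17 animals, and lines of *Map7d2* rise only in 3 *Lepr*-ctrl animals at 4 wpc.

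Ordered by mean CPM, the groups showed 2 patterns. For *Slc1a2* the 4 injured groups stood below the 4 healthy groups, from 0.156 ± 0.043 CPM (SD, n = 4) in injured *Lepr*-ctrl nerves at 4 wpc, through 0.793 ± 0.217 (SD, n = 5), 0.857 ± 0.396 (SD, n = 5) and 0.989 ± 0.919 (SD, n = 4) in the other injured groups, whose ranges overlapped, to 10.6 ± 2.08 (SD, n = 5) in healthy *Lepr*-cKO nerves at 4 wpc. For *Adra1d* the order of the lowest group was the same, at 0.340 ± 0.086 CPM (SD, n = 4), but neighbouring injured groups all overlapped. For *Doc2b* every group overlapped with the next, up to 16.5 ± 16.8 CPM (SD, n = 4) in injured *Lepr*-ctrl nerves at 4 wpc. For *Map7d2* the injured groups at 2 wpc and the injured *Lepr*-cKO group at 4 wpc overlapped at means of 1.01 to 1.23 CPM, and the other 5 groups overlapped at means of 2.77 to 3.90 CPM. Per kilobase of merged exon, *Adra1d* was highest in healthy nerves, with group means of 1.16 to 1.86 CPM per kb (without TMM factors). The others were at 0.508 to 0.773 (*Slc1a2*), 0.361 to 0.708 (*Doc2b*) and 0.644 to 0.719 (*Map7d2*). This comparison between genes is rough, since the merged exons join all annotated transcripts, 12 for *Slc1a2* and 1 for *Adra1d*. The length of the transcripts in use is not known.

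*Doc2b* and *Map7d2* deviated together from their group means over the 39 libraries (r = 0.56 on log2 CPM), and *Slc1a2* and *Adra1d* less so (r = 0.37). These correlations describe libraries that share tissue pieces and depth. Over all libraries without removal of group means, r was 0.88 for *Slc1a2* with *Adra1d* and 0.33 for *Doc2b* with *Map7d2*. By the correlation of log2 CPM over the 39 libraries, among 14050 genes, the genes closest to *Slc1a2* were *Ttc17* (r = 0.97), *Nf1* and *Usp22* (both 0.96), and those closest to *Adra1d* were *Atp1b2*, *Faf2* (both 0.94) and *Ano10* (0.93). *Doc2b* had no gene as close, with *Fry* at 0.77, *Map3k6* at 0.76 and *Ccdc85a* at 0.75, and for *Map7d2* the closest were *Sult1a1*, *Tsr2* and *Klhl3*, all at 0.80. With Spearman's rho, only *Atp1b2* and *Fry* stayed among the closest 3 of their gene.

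The groups held mice of both sexes, 14 male and 25 female libraries in all. The sex of each library was inferred from its counts, as female where *Xist* exceeded *Ddx3y* and as male otherwise. With sex added to the fit, the log2 difference of male minus female was -0.99 (SE 0.33, edgeR adjusted p = 0.374) for *Doc2b*, at a mean of 1.75 CPM in male and 5.45 CPM in female libraries. It was between -0.29 and -0.06 for the other 3 genes, with edgeR adjusted p of at least 0.665. Of the injured *Lepr*-ctrl nerves at 4 wpc, the 1 from a male mouse (WT-173) had the lowest *Doc2b* level, 3.40 CPM, and the part of sex in the *Doc2b* values was not tested further.

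**Figure D4:**
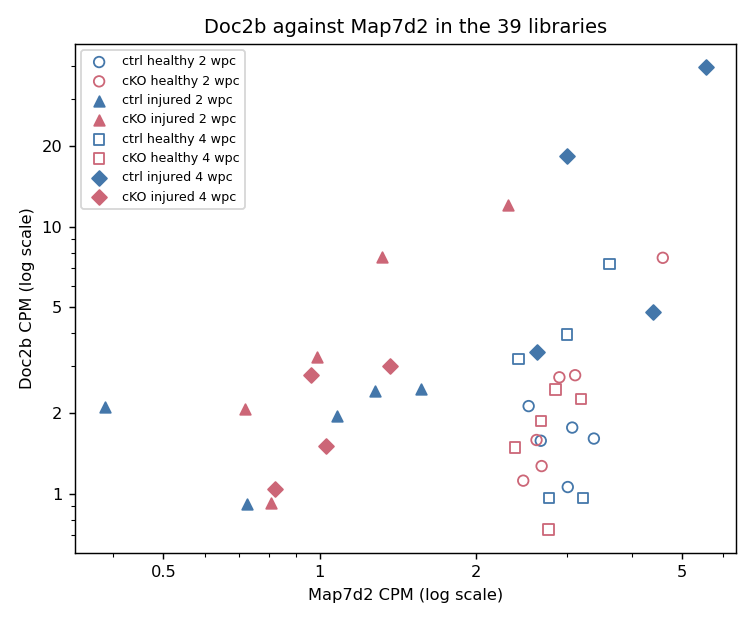
*Doc2b* against *Map7d2* CPM (both on log scales) for the 39 libraries, with *Lepr*-ctrl in blue and *Lepr*-cKO in red, healthy nerves as open and injured nerves as filled symbols. The injured *Lepr*-ctrl nerves at 4 wpc reach 39.6 CPM of *Doc2b* and 5.57 CPM of *Map7d2*, and the injured *Lepr*-cKO nerves at 4 wpc lie at 1.04 to 3.0 and 0.820 to 1.37 CPM.

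Gene families of the 4 genes were compared in the same fits, where 34.1% of all genes were called on injury at 2 wpc in controls, 34.3% in the knockout and 34.1% at 4 wpc over both genotypes. Of the 7 SLC1 transporters, 4, 3 and 3 were called in these comparisons, all lower, and without the selected *Slc1a2* 3, 2 and 2 of 6. In controls at 2 wpc these were *Slc1a7* (-3.28, SE 0.68, edgeR adjusted p = 9.43e-05), which had a mean of only 0.0389 CPM in the injured nerves, the glial glutamate transporter *Slc1a3* (-1.41, SE 0.53, edgeR adjusted p = 0.0201) and *Slc1a6*. *Slc1a7* and *Slc1a6* were also called in the knockout, but *Slc1a3* was not (-0.37, SE 0.49, edgeR adjusted p = 0.515), and its call in controls was lost without WT-144 or WT-147 and with the animal as a block. At 4 wpc, *Slc1a1* (-1.86, SE 0.47, edgeR adjusted p = 0.000722) and the neutral amino acid transporter *Slc1a4* (-1.32, SE 0.19, edgeR adjusted p = 2.64e-07) were called. The mean of *Slc1a1* was only 0.0574 CPM in injured *Lepr*-ctrl and 0.0926 CPM in injured *Lepr*-cKO nerves, against 0.289 and 0.241 CPM in healthy nerves. Of 9 tested genes of glutamate and glutamine metabolism and carriers, 3, 3 and 2 were called. The glutamine carrier *Slc38a1* (3.25, SE 0.45, edgeR adjusted p = 1.1e-07 in controls at 2 wpc) and the cystine-glutamate exchanger *Slc7a11* (1.92, SE 0.40, edgeR adjusted p = 7.96e-05) were higher in all 3 comparisons. *Got2* was called lower in controls at 2 wpc only, and its value in the knockout was -0.58 (SE 0.28, edgeR adjusted p = 0.0661). Injured *Lepr*-cKO nerves at 2 wpc spread widely, with *Got2* at 24.7 ± 22.3 CPM (SD, n = 5) and *Slc1a3* at 7.91 ± 11.7 CPM (SD, n = 5). That group holds the muscle-rich library of KO-126, whose part in these values was not tested.

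Of 15 tested glutamate receptors, 3 were called higher and 4 lower at 2 wpc in controls, 3 higher and 5 lower in the knockout, and 4 higher and 6 lower at 4 wpc. The AMPA receptor subunit *Gria1* was higher at 4 wpc (4.68, SE 0.24, edgeR adjusted p = 5.22e-18), and the kainate receptor subunit *Grik3* was lower (-3.29, SE 0.25, edgeR adjusted p = 1.31e-13). The metabotropic receptor *Grm3* was also called lower, but it had a mean of 0 CPM in injured *Lepr*-ctrl and 0.0163 CPM in injured *Lepr*-cKO nerves at 4 wpc, against 0.456 and 0.707 CPM in healthy nerves, so that no fold is given. Of 9 adrenoceptors, 2 were called higher and 3 lower at 2 wpc in controls, 3 higher and 1 lower in the knockout, and 2 higher and 2 lower at 4 wpc. Without *Adra1d*, 4, 4 and 3 of 8 were called. The presynaptic receptor *Adra2a* was lower in all 3 comparisons, at -1.14 (SE 0.40, edgeR adjusted p = 0.0125) in controls and -1.17 (SE 0.38, edgeR adjusted p = 0.00807) in the knockout at 2 wpc and at -1.48 (SE 0.31, edgeR adjusted p = 6.60e-05) at 4 wpc. Its call in controls at 2 wpc was lost without WT-144 and with the animal as a block. *Adrb3* was called higher in all 3 comparisons, and its call at 4 wpc was lost without WT-171 or KO-176 and with the animal as a block. Its mean in healthy nerves at 2 and 4 wpc was only 0.0258 and 0.0455 CPM in *Lepr*-ctrl and 0.601 and 0.764 CPM in *Lepr*-cKO mice. In injured *Lepr*-cKO nerves at 2 wpc, *Adrb3* was at 4.43 ± 9.45 CPM (SD, n = 5), an SD above the mean. That group holds the library of KO-126, whose adipocyte markers summed to 1530 CPM, and its part in this value was not tested. *Adra1a*, the alpha-1A adrenoceptor, was lower at 2 wpc in controls (-2.09, SE 0.56, edgeR adjusted p = 0.00148), was at 0.06 in the knockout (SE 0.49, edgeR adjusted p = 0.921), and was higher at 4 wpc over both genotypes (1.42, SE 0.40, edgeR adjusted p = 0.00178).

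Of 14 genes of alpha-1 adrenoceptor signalling, 4 were called higher and 6 lower at 2 wpc in controls, 4 higher and 5 lower in the knockout, and 5 higher and 4 lower at 4 wpc. The phospholipase *Plcb1* (-1.98, SE 0.14, edgeR adjusted p = 1.11e-14) and the kinase *Prkca* (-2.28, SE 0.14, edgeR adjusted p = 6.54e-16) were lower at 4 wpc. *Plcb2* (2.55, SE 0.24, edgeR adjusted p = 1.31e-11), *Prkcb* (3.54, SE 0.25, edgeR adjusted p = 9.73e-15) and *Rgs2*, a brake on Gq signalling (3.13, SE 0.15, edgeR adjusted p = 8.91e-19), were higher.

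Of 34 tested genes of the DOC2 family and calcium-triggered exocytosis, 7 were called higher and 11 lower at 2 wpc in each genotype, and 5 higher and 12 lower at 4 wpc. Without *Doc2b*, 18, 18 and 16 of 33 were called. The family member *Doc2g* was higher at 2 wpc in controls (2.72, SE 0.32, edgeR adjusted p = 6.29e-09) and in the knockout (2.42, SE 0.30, edgeR adjusted p = 1.22e-08) and at 4 wpc (2.69, SE 0.24, edgeR adjusted p = 3.78e-12). The synaptic genes *Rph3a* (-4.63, SE 0.20, edgeR adjusted p = 8.64e-20), *Rims1* (-2.93, SE 0.19, edgeR adjusted p = 1.41e-15) and *Snap25* (-2.69, SE 0.22, edgeR adjusted p = 8.98e-13) were lower at 4 wpc. Of 11 genes of the MAP7 family and kinesin-1, 1 was called higher and 4 lower at 2 wpc in controls, 0 higher and 5 lower in the knockout, and 1 higher and 4 lower at 4 wpc, and without *Map7d2* 4, 4 and 5 of 10 were called. The kinesin-1 heavy chains *Kif5a*, *Kif5b* and *Kif5c* were lower in all 3 comparisons, with *Kif5c* at -3.25 (SE 0.27, edgeR adjusted p = 1.67e-12) in controls at 2 wpc and -2.70 (SE 0.20, edgeR adjusted p = 6.58e-14) at 4 wpc. The light chain *Klc4* was higher at 4 wpc (1.13, SE 0.11, edgeR adjusted p = 1.65e-11). *Map7* itself was at -0.77 in controls at 2 wpc and -0.66 at 4 wpc and *Map7d1* at -0.18 and -0.42, none of them past the fold threshold. Between genotypes in injured nerves, 0 genes of these lists other than the 4 genes were called at 2 or 4 wpc. Of all tested genes, only 0.569% and 0.45% were called there, so a count of 0 in lists of this size says little.

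**Figure D5:**
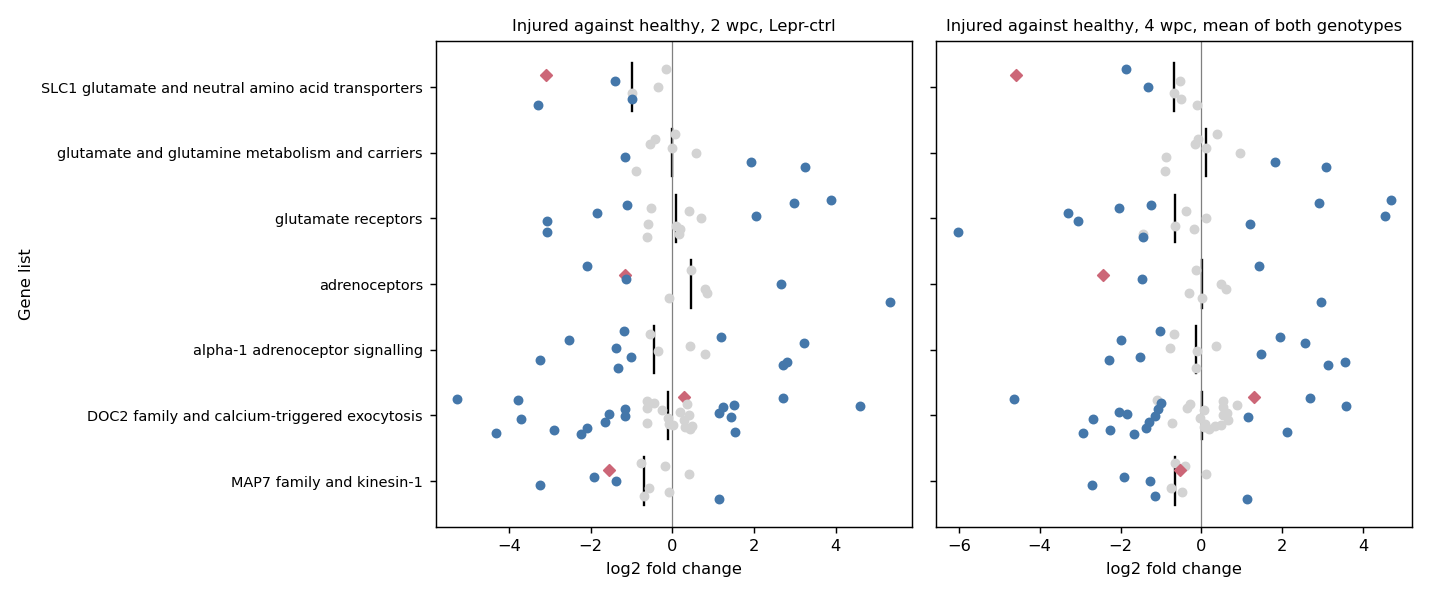
Log2 fold change of injured against healthy nerves for the tested genes of 7 lists, at 2 wpc in *Lepr*-ctrl mice (left) and at 4 wpc over both genotypes (right). Red diamonds are *Slc1a2*, *Adra1d*, *Doc2b* and *Map7d2*, blue points other called genes, grey points genes not called, and black lines the list medians, which run from -1.0 to 0.46 on the left and -0.69 to 0.11 on the right. The leftmost point on the right is *Grm3*, whose fitted value is no measure of its fold, since it was at 0 CPM in a group.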

How the data were processed

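RNA was sequenced from the sciatic nerve endoneurium of 22 mice, giving 39 libraries in 8 groups. Per the study's methods and processing notes, the authors prepared unstranded libraries, demultiplexed with bcl2fastq 2.20.0.422, aligned reads with STAR 2.5 to GRCm38 and deposited raw read counts per gene made with featureCounts 1.5.0-p1. Whether counting used strand or multimapping reads is not given in the sources used here. The study's methods give 4 nerves per group, whereas the groups here hold 4 to 6 libraries.

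The counts of 55573 genes were filtered with filterByExpr (minimum count 10, minimum total 15), scaled with TMM factors and fitted with edgeR 4.0.16 (quasi-likelihood, R 4.3.3) as 8 group means over all 39 libraries. P-values were adjusted by Benjamini-Hochberg over the 18442 genes kept. Genes were called at an adjusted p below 0.05 and an absolute log2 fold change above 1. Correlations used log2 CPM with a prior count of 2. Intervals of pooled counts are 95% and cover counting error only. Reads are not independent molecules, and library totals of 10905806 to 45016322 limit the precision of genes at a few CPM. Outliers within groups were sought in 32 sets of values. The fit was tested on simulated data before use.

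The 4 genes and the gene and marker lists were chosen with earlier results of these data known. Named besides the 4 genes were, per list, up to 3 called genes in each direction with the largest log2 fold change on injury, the 3 genes most correlated with each of the 4, and the next genes in the comparison that chose them. *Slc1a6*, *Kif5b* at 2 wpc, *Map7*, *Map7d1* and the knockout values of list genes at 2 wpc are outside this rule and were added after their values were seen. Alternatives were DESeq2 1.42.0, its size factors in edgeR, no filter, at least 10 counts in every library, mitochondrial genes out of the normalization, only the groups compared, a sex term, exact permutation tests, the animal as a block, each library left out, and, chosen after seeing the data, the 3 libraries of deviating composition left out. Same-numbered nerves come from the same animal by their labels. The deviations of the 17 pairs from their group means correlated at -0.064 to 0.262, above 0.1 in 11 pairs. No 2 libraries held identical values.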

Additional observations from a re-analysis of the deposited data

Results flagged for a closer look

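Within the 6 healthy *Lepr*-cKO nerves at 2 wpc, the nerve of KO-138 stood far from the others in 2 genes. *Doc2b* was at 7.65 CPM, with the next nerve at 2.78 CPM, and *Map7d2* was at 4.59 CPM, with the next nerve at 3.11 CPM. Of 32 sets of values examined, chance would single out about 1 in 20.

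The injury response, averaged over genotypes, differed between 4 and 2 wpc by the fitted difference itself. It was -1.44 on the log2 scale for *Slc1a2*, -1.44 for *Adra1d* and 0.92 for *Map7d2*. Time and cohort of mice cannot be told apart in these values. They include the injured nerves at 4 wpc that the genes were selected on, and for *Slc1a2* the *Lepr*-ctrl nerves among these had 1 to 3 reads each. The fitted response of *Slc1a2* at 4 and 2 wpc was -5.84 and -3.10 in controls but -3.34 and -3.21 in the knockout.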

How the results depend on the processing

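All values of the 4 genes kept their direction with DESeq2, its size factors in edgeR, no expression filter or mitochondrial genes out of normalization. Their calls also held, outside the comparison that chose the genes. There, the call of *Adra1d* was lost with the size factors and with no filter. The sex term ended the calls of *Adra1d* and *Doc2b*. Without the 3 libraries of deviating composition, those of *Slc1a2*, *Adra1d* and *Doc2b* were lost, and with only the groups compared all 4. With 1 library left out, *Slc1a2* was called in 4 of 8 such fits, *Adra1d* and *Doc2b* in 2 and *Map7d2* in 8. All these fits use libraries that the genes were selected on, so a call kept in them is no support for the difference. Reversed values were all uncalled. *Doc2b* on injury at 2 wpc in *Lepr*-ctrl mice was -0.05 with a sex term. Between genotypes in injured nerves at 2 wpc, *Slc1a2* was at -0.02 by the exact permutation test, and without the 3 libraries of deviating composition *Slc1a2* was at -0.02 and *Adra1d* at -0.48, with -0.34 for the injury response of *Adra1d*. With 1 library left out, values between genotypes in injured nerves at 2 wpc ran from -0.10 to 0.36 (*Slc1a2*), -0.27 to 0.57 (*Adra1d*) and -0.05 to 0.50 (*Map7d2*), and for the injury response from -0.32 to 0.14, -0.14 to 0.71 and -0.11 to 0.44. In healthy nerves they ran from -0.03 to 0.24 for *Adra1d* at 4 wpc and -0.09 to 0.12 for *Map7d2* at 2 wpc, and between times from -0.12 to 0.44 for *Doc2b* and -0.09 to 0.02 for *Map7d2*. The cause was not tested.

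Of the 4 genes, 1 was called on injury at 2 wpc in each genotype, 1 at 4 wpc, 0 from 2 to 4 wpc in injured nerves and 0 for the difference of responses when at least 10 counts were required in every library, since *Slc1a2* and *Adra1d* were then not tested. From 2 to 4 wpc in injured nerves, 3 were called by adjusted p alone, 0 with only the groups compared, 2 without the 3 libraries, and 0 to 2 with 1 library left out. The animal as a block (replicate block) changed 3 calls of the 4 genes: *Adra1d* on injury in the knockout at 2 wpc (-1.06), *Doc2b* at 4 wpc (0.98) and *Map7d2* between times (1.09). It also ended those of *Slc1a3* and *Adra2a* in controls at 2 wpc and of *Adrb3* at 4 wpc, and no other list call that was refitted. List genes were refitted only where the naming rule picked them, in controls at 2 wpc and over both genotypes at 4 wpc. Their calls in the knockout at 2 wpc were not checked in this way. By Spearman's rho, 0, 1, 1 and 0 of the 3 closest genes of *Slc1a2*, *Adra1d*, *Doc2b* and *Map7d2* were the same.

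Over all genes, the 105 called between genotypes in injured nerves at 2 wpc became 22 with DESeq2, 207 with no filter, 19 with 10 counts in every library, 0 with only the groups compared, 4 without the 3 libraries, and 1 (without KO-126) to 210 with 1 left out. The 83 at 4 wpc became 129 with DESeq2, 51 with its size factors, 40 with no filter, 46 with 10 counts, 0 with only the groups compared, 41 with a sex term, 52 without the 3 libraries and 6 to 725 with 1 left out. In healthy nerves, DESeq2 called 8 and 9 in place of 1 and 1, and for the genotype difference in injury response 2 in place of 0 (0 to 37 with 1 left out). Between times in healthy nerves, 90 became 155 with only the groups compared and 35 with 10 counts. With 10 counts, the injury comparisons gave 3413, 3313 and 3197 in place of 6289, 6330 and 6295, and the time comparisons 416 and 424 in place of 1336 and 857. Depth limits *Slc1a2* and *Adra1d* in injured *Lepr*-ctrl nerves at 4 wpc, with 1 to 3 and 3 to 7 reads.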
